A study of Mus musculus with 6 samples.

Results

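The Kupffer cell identity genes described here are 8 genes chosen by symbol, Clec4f, Timd4, Vsig4, Cd5l, Marco, Folr2, Spic and Cd163. All 8 were found among the 52459 gene rows of the count table, and all 8 passed the filter on low counts that left 14130 genes for testing. The data are RNA-seq read counts from 6 samples of mouse liver tumour (hepatocellular carcinoma) of the MYC-LAP-tTA genotype. In this model the liver activator protein (LAP) promoter, active in hepatocytes, drives a tetracycline transactivator (tTA) that keeps a MYC transgene on, so the switch acts in the hepatocyte lineage and not in macrophages. The transgene was active in 3 samples (MYC_On) and had been inactivated for 4 days in the other 3 (MYC_Off). The sources used here do not give strain, age, sex, pooling or the agent that switched MYC. They also do not say that each sample was a different animal, so the p-values reflect variation among the 6 samples, part of which could be technical.

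Kupffer cells are the resident macrophages of the liver, anchored in the sinusoids, where they clear microbes, debris and aged red cells from the blood. Their identity is imposed by the surrounding endothelial, stellate and hepatic cells, whose Notch ligands and TGF-beta family signals induce transcription factors such as LXR-alpha (Nr1h3) and ID3. Macrophages newly recruited from monocytes carry general macrophage genes first and acquire the identity genes later. In liver tumours resident and recruited macrophages can be found side by side.

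As a check of the labels, Myc stood at 778, 1016 and 852 CPM in MYC_On replicates 1 to 3 and at 74.7, 10.2 and 18.7 CPM in MYC_Off replicates 1 to 3. CPM here are counts per unit of sequencing depth after TMM scaling, which corrects for abundant transcripts that take up part of a library. Each library held 16292718 to 19265623 reads, and 1 read was worth 0.0408 to 0.0767 CPM. The hepatocyte markers matched the labelled tissue in all 6 libraries, with Alb taking 0.112% to 0.341% of MYC_On reads and 5.85% to 13.8% of MYC_Off reads. The 3 MYC_Off libraries differed widely from each other: replicate 3 stood apart for most of the 8 genes, while for many other macrophage genes replicate 1 was highest and replicates 2 and 3 were close. Results that rest on replicate 3 are given with and without it. The labels do not say how much surrounding liver was taken with each tumour, so a difference in that between the MYC_Off libraries cannot be told apart from the values given here. In RNA of whole tumour, fewer cells of a type and less RNA per cell cannot be told apart.

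The 8 genes lie on 7 chromosomes and are all annotated as protein coding in GENCODE M21 (mm10). Clec4f occupies chromosome 6, 83644542 to 83656187 (minus strand), Vsig4 chromosome X, 96247203 to 96293438 (minus), Timd4 chromosome 11, 46810800 to 46844332 (plus), and Cd5l chromosome 3, 87357881 to 87371073 (plus). Marco lies on chromosome 1, 120474538 to 120505024 (minus), Folr2 on chromosome 7, 101839988 to 101857194 (minus), Spic on chromosome 10, 88674772 to 88685015 (minus), and Cd163 on chromosome 6, 124304656 to 124330527 (plus). Only Folr2 has exons that overlap another gene, the antisense Gm10602, so its reads are uncertain where strand was not counted.

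Promoter sequences are shown because several of these genes moved together across libraries and because macrophage genes are commonly bound by the SPI family of ETS factors, to which Spic itself belongs. The motif marked was the core GGAAGT, or ACTTCC on the other strand, in the 250 bases before the RefSeq start (GRCm38.p6). It was found before 5 of the 8 genes (Clec4f, Folr2, Spic, Timd4 and Vsig4), and Folr2 has a further promoter without it. Counted by promoter, it was in 5 of 9, against 19.7% of all 32851 promoters. The longer form GAGGAAGT was in 0 of the 9 promoters of these genes and in 2.44% of all promoters. Below, capitals mark the core, and sequences run 5′ to 3′ on the strand of the gene.
Vsig4, chrX:96293439-96293688, minus strand: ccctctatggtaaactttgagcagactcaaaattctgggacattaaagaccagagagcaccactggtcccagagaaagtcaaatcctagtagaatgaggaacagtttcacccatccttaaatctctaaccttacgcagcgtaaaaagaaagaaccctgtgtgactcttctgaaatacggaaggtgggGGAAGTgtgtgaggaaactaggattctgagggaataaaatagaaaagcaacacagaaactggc
Timd4, chr11:46810549-46810798, plus strand: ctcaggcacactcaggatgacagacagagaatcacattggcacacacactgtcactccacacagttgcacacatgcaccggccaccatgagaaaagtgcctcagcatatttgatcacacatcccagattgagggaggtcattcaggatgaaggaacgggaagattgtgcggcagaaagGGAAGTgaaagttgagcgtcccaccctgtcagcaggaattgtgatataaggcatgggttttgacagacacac
Cd5l, chr3:87357631-87357880, plus strand: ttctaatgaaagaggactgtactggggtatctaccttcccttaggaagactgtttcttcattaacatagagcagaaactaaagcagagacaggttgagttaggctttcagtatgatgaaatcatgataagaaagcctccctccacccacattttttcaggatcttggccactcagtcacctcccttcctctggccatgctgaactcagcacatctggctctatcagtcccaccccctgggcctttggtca
Clec4f, 30 bases around the core: gaggcaggtttgGGAAGTtgtcctgacctc
Folr2, 30 bases around the core farther from the start: gctaaatcaccaGGAAGTgaaactcttcaa
Spic, 30 bases around the core: cccctttgcagcACTTCCttaaaaaatagc
The core starts 33 bases before the RefSeq start of Clec4f, 63 before that of Vsig4 and 72 before that of Timd4. It starts 136 and 81 bases before that of Folr2, and on the other strand 48 before that of Spic. The RefSeq starts of Clec4f and Spic lie 71 and 1992 bases inside the GENCODE gene, so these 2 cores fall within the gene spans given above. Clec4f and Timd4 also hold the nuclear receptor half-site AGGTCA or its complement TGACCT, found in 14.0% of promoters. A half-site of MAF factors, TGCTGA or its complement TCAGCA, was in 6 of the 9 promoters, against 16.1% of all promoters. These 6 belong to Cd5l, Clec4f, Folr2, Spic and Timd4, so the SPI core was not the only motif frequent before these genes. A match describes letters only and shows no binding.

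The comparison of MYC_Off with MYC_On asks how these genes differ 4 days after MYC was switched off. Clec4f, Vsig4, Folr2 and Cd163 rose, and Timd4, Cd5l, Marco and Spic did not pass the test. Thus 4 of 8 were higher and 0 lower in edgeR's quasi-likelihood test at a Benjamini-Hochberg adjusted p of 0.05, against 29.9% of tested genes called higher, 22.8% called lower and 52.7% called in either direction. The median log2 fold change (MYC_Off minus MYC_On) of the 8 was 2.19, against 0.18 for all tested genes. What the group means do not show is the division within MYC_Off. In replicates 1 and 2 all 8 genes stood above every MYC_On library, which held for 37.5% of tested genes, while in replicate 3 Clec4f, Timd4, Cd5l, Marco and Spic, 5 of 8, were read below every MYC_On library, as were 39.9% of tested genes. For these 5 replicate 3 had the lowest reading of the 6 libraries, which held for 19.3% of tested genes. Both together, replicates 1 and 2 above and replicate 3 below, held for the same 5 of 8 genes and for 1.50% of tested genes. With replicate 3 set to at least 3 reads, the limit that 0 reads allow, Clec4f left this count, which was then 4 of 8 genes and 1.37% of tested genes. Under each of 3 other scalings Spic left it, giving 4 of 8 genes against 1.52% to 1.98% of tested genes, and with the limit as well 3 or 4 of 8.

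**Figure D1:**
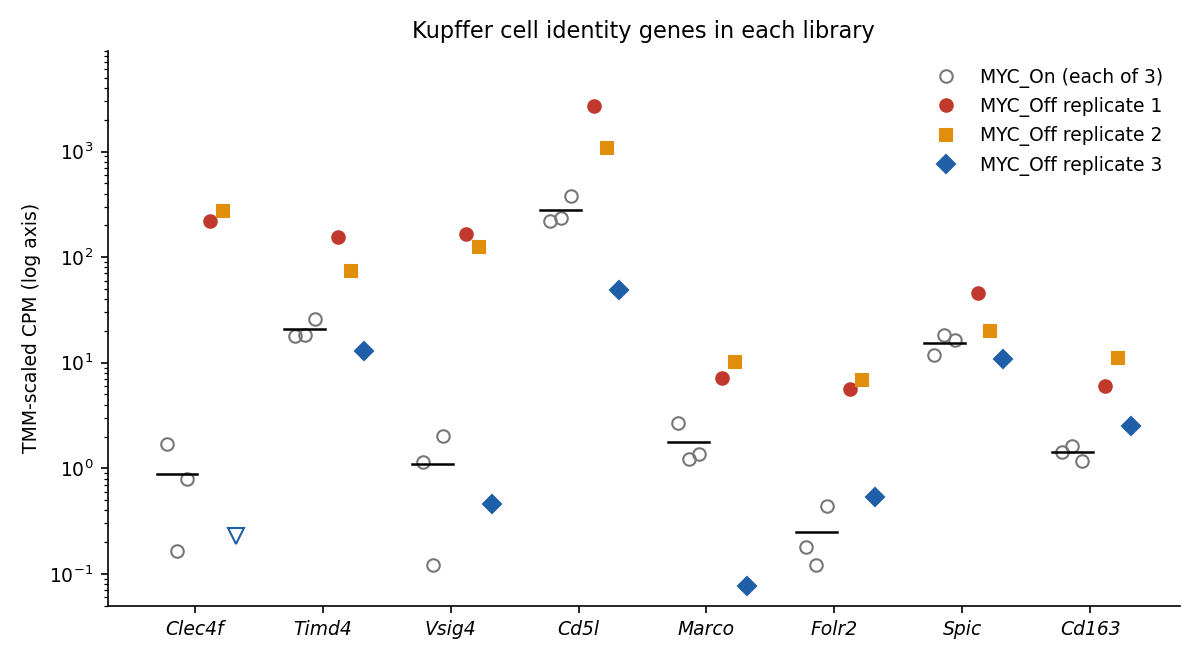
TMM-scaled CPM of each gene in each library, on a log axis. Open circles are MYC_On libraries with their mean as a line, filled symbols are MYC_Off libraries, and the open triangle marks the limit of 0.230 CPM that 3 reads give where Clec4f had 0 reads. For Timd4, Cd5l, Marco and Spic, MYC_Off replicate 3 lies under the MYC_On values while replicates 1 and 2 lie over them. For Clec4f the limit drawn for replicate 3 lies within the MYC_On values.

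Clec4f encodes a C-type lectin that in the mouse is the most restricted surface marker of Kupffer cells. It had 38, 4 and 16 reads in MYC_On replicates 1 to 3 and 4024, 3549 and 0 reads in MYC_Off replicates 1 to 3, or 1.69, 0.163 and 0.787 CPM against 221, 271 and 0 CPM. The 0 reads of replicate 3 allow a level of up to 0.230 CPM, which is above the 0.163 CPM of MYC_On replicate 2, so replicate 3 is not shown to lie below that library. The groups overlapped although replicates 1 and 2 stood far above MYC_On. Replicate 1 was at least 960-fold and replicate 2 at least 1179-fold higher than replicate 3, computed against that limit of 3 reads in the library. The fitted log2 fold change was 7.54 (SE 2.14, 95% interval 2.52 to 12.56, edgeR adjusted p = 0.0218).

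Vsig4 encodes CRIg, a complement receptor through which Kupffer cells capture particles coated with fragments of C3. Its level was 1.16, 0.123 and 2.02 CPM in MYC_On and 165, 125 and 0.460 CPM in MYC_Off. The pattern was that of Clec4f, except that the 6 reads of MYC_Off replicate 3 stood within the MYC_On range of 3 to 41 reads. The rise of Vsig4 was 6.48 on the log2 scale (SE 1.80, 95% interval 2.25 to 10.71, edgeR adjusted p = 0.0202). Between replicates 1 and 3 of MYC_Off the ratio was 360.

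Folr2, the folate receptor beta of resident macrophages, had the lowest MYC_On mean of the 8 per length of transcript, though Clec4f was lowest in MYC_On replicate 2 and Cd163 in MYC_On replicate 3. It had 4, 3 and 9 reads in MYC_On and 103, 89 and 7 reads in MYC_Off, which gave 0.178, 0.123 and 0.443 CPM against 5.65, 6.80 and 0.537 CPM. The groups did not overlap in CPM, by a margin of 0.537 over 0.443 CPM, but in reads MYC_Off replicate 3 lay inside the MYC_On range. The log2 fold change was 4.11 (SE 1.02, edgeR adjusted p = 0.0131). With scaling by library size only, and by library size without the 20 most read genes, the groups overlapped. With a filter of 1 CPM in 3 libraries Folr2 was not tested.

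Cd163 encodes the scavenger receptor that takes up haemoglobin bound to haptoglobin. It stood at 1.42, 1.63 and 1.18 CPM in MYC_On and at 6.03, 11 and 2.53 CPM in MYC_Off, with no overlap. Cd163 was thereby raised in all 3 MYC_Off libraries, least in replicate 3 with a ratio of 1.79 to the MYC_On mean. Its log2 fold change was 2.20 (SE 0.60, 95% interval 0.80 to 3.59, edgeR adjusted p = 0.0182). With scaling by library size only, Cd163 no longer stood above all MYC_On libraries in replicate 3 and lost its call (edgeR adjusted p = 0.0848). Over the 8 genes, 2 (Folr2 and Cd163) had groups without overlap, both with MYC_Off above, against 63.1% of all tested genes (33.2% with MYC_Off above and 29.8% with MYC_Off below).

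Timd4 encodes TIM-4, a receptor for phosphatidylserine on dying cells and a mark of long-resident, embryonically seeded Kupffer cells. Its values were 18.1, 18.4 and 26.0 CPM in MYC_On and 154, 73.3 and 12.9 CPM in MYC_Off. Unlike Clec4f it was clearly read in every MYC_On library, with 407 to 529 reads. The log2 fold change of 1.94 had a 95% interval of 0.18 to 3.71 and missed the threshold after adjustment (edgeR adjusted p = 0.0626). DESeq2 called it (adjusted p = 0.0228).

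Cd5l encodes a secreted protein of the scavenger receptor cysteine-rich family, made by tissue macrophages and known as AIM. It was the most read of the 8, with 221, 235 and 383 CPM in MYC_On and 2677, 1072 and 49.1 CPM in MYC_Off. Cd5l made up 85.5% to 88.8% of the reads of the 8 genes in MYC_On and 64.3% to 81.6% in MYC_Off. Replicate 1 exceeded replicate 3 by 54.5-fold, and the MYC_On mean of 280 CPM exceeded replicate 3 by 5.69-fold. With replicates of one group on both sides of MYC_On, the log2 fold change of 2.18 had a 95% interval from -0.42 to 4.78 (edgeR adjusted p = 0.135).

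Marco encodes a scavenger receptor with a collagen-like stalk that binds bacteria and particles. It stood at 2.71, 1.23 and 1.38 CPM in MYC_On and at 7.18, 10.2 and 0.0767 CPM in MYC_Off. That last value was a single read, against 131 and 134 reads in the other MYC_Off libraries and 28 to 61 in MYC_On. Its log2 fold change was 1.72 (95% interval -1.0 to 4.43, edgeR adjusted p = 0.244).

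Spic encodes an ETS transcription factor induced by haem and needed for the iron-recycling macrophages of the spleen. Its levels were 11.9, 18.2 and 16.2 CPM in MYC_On and 45.6, 19.8 and 10.8 CPM in MYC_Off. Spic varied least, with replicate 2 of MYC_Off only just above the highest MYC_On library, and below it under 3 other scalings tried. The log2 fold change was 0.72 (95% interval -0.47 to 1.91, edgeR adjusted p = 0.263), and without MYC_Off replicate 1 it was -0.16.

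The order of the genes by level per length also differed between libraries. Per kilobase of exon, Cd5l was first in all 6 libraries, at 108 to 188 CPM per kb in MYC_On and 1315, 527 and 24.1 in MYC_Off replicates 1 to 3. In MYC_On Timd4 (8.33 to 11.98 CPM per kb) and Spic (3.09 to 4.73) came next, ranges that do not touch, and Clec4f, Vsig4, Marco, Folr2 and Cd163 each lay at or below 1.41. In MYC_Off replicates 1 and 2 Clec4f (89.3 and 110 CPM per kb) and Vsig4 (111 and 84.3) came next after Cd5l, above Timd4 (71.0 and 33.7), and changed places with each other between the libraries. In MYC_Off replicate 3 the MYC_On order of the first 3 returned, with Timd4 at 5.93 and Spic at 2.81 CPM per kb, and Clec4f was last.

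The calls depended on single libraries. Without MYC_Off replicate 3, a library singled out after its values were seen, 7 of the 8 genes passed (all but Spic), with 29.3% of tested genes called higher and 23.5% lower in that fit, and the median log2 fold change was 2.58. Without it Clec4f stood at 8.03 (SE 0.79), Cd5l at 2.69 (SE 0.54), Timd4 at 2.39 (SE 0.40) and Marco at 2.19 (SE 0.50), all smaller errors than with the 6 libraries. Without MYC_Off replicate 1, Clec4f and Cd163 passed, and without MYC_Off replicate 2, Clec4f and Vsig4 passed. Leaving out MYC_On replicate 1 or 2 left 0 genes past an edgeR adjusted p of 0.05 (4 genes had an unadjusted p under that value each time), and leaving out MYC_On replicate 3 left Folr2 alone. Over all tested genes, the fits that left out 1 library called 2776 to 4317 genes higher, against 4222 with all 6 libraries. Calls over all genes thus also changed with the library left out. How much of the loss was particular to these 8 genes was not tested. Folr2 was not tested in the fits without MYC_Off replicate 1 or 2. Other libraries moved the values the other way: without MYC_Off replicate 1 the log2 fold change of Cd5l was 0.86 and that of Timd4 0.90, and without MYC_Off replicate 2 that of Marco was 1.04.

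**Figure D2:**
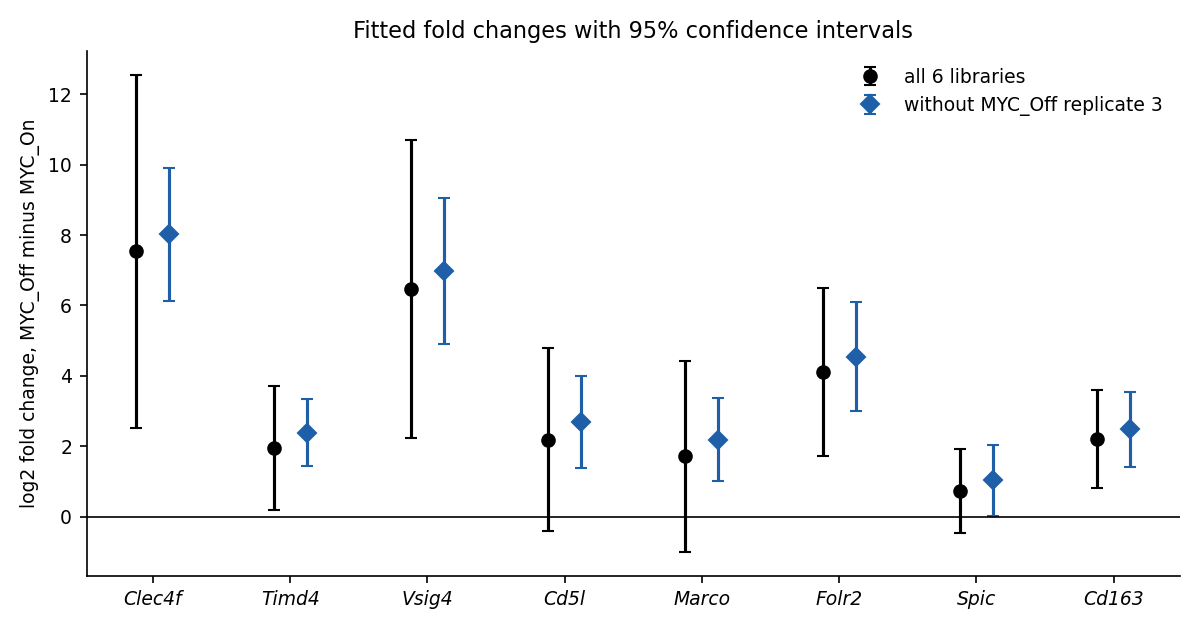
Log2 fold change (MYC_Off minus MYC_On) of each gene from edgeR with its 95% confidence interval, from all 6 libraries (black circles) and without MYC_Off replicate 3 (blue diamonds). With all 6 libraries the intervals of Cd5l, Marco and Spic cross 0, and without that library no interval does, though Spic did not pass after adjustment (edgeR adjusted p = 0.0815).

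General macrophage genes did not follow the same division. All 16 pan-macrophage genes rose, and all 16 stood above every MYC_On library in replicate 3 as well. Their summed level was 830 to 1483 CPM in MYC_On and 11161, 3978 and 3039 CPM in MYC_Off replicates 1 to 3. Adgre1, which encodes the macrophage antigen F4/80, stood at 9.78, 13.1 and 13.3 CPM in MYC_On and at 112, 48.0 and 39.2 CPM in MYC_Off (log2 fold change 2.46, SE 0.43, edgeR adjusted p = 0.00381). Of the 16, 8 passed when MYC_On replicate 1 was left out, 7 when MYC_On replicate 2 was, and 10 under scaling by library size alone.

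Reads set against those of Adgre1 within a library do not depend on the scaling. Cd5l had 1794 to 2880 reads per 100 Adgre1 reads in MYC_On, 2399 and 2235 in MYC_Off replicates 1 and 2, and 125 in replicate 3. Timd4 had 140 to 196 in MYC_On, 138 and 153 in MYC_Off replicates 1 and 2, and 32.9 in replicate 3. For Cd5l replicates 1 and 2 of MYC_Off thus lay inside the MYC_On range, and for Timd4 replicate 2 did and replicate 1 lay just under it. Clec4f, by contrast, went from 1.25 to 17.3 per 100 Adgre1 reads in MYC_On to 198 and 565 in MYC_Off replicates 1 and 2 and 0 in replicate 3, and Vsig4 from 0.935 to 15.2 up to 148 and 261, with 1.17 in replicate 3.

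Spic was the only one of the 8 whose groups did not overlap on this measure, at 121, 139 and 122 reads per 100 Adgre1 reads in MYC_On and 40.9, 41.2 and 27.6 in MYC_Off. Non-overlap was common, holding for 73.4% of tested genes. In two-sided exact permutation tests the p for Spic was 0.10 (0.57 adjusted over the 8 genes), and 0.10 is the smallest value that 3 samples against 3 allow. Marco had 9.35 to 27.7 in MYC_On and 6.44, 21.3 and 0.196 in MYC_Off (exact permutation p = 0.50). Folr2 had 0.935 to 3.33 in MYC_On and 5.06, 14.2 and 1.37 in MYC_Off, above the MYC_On range in replicates 1 and 2 (exact permutation p = 0.30). Cd163, which in CPM was above MYC_On in all 3 MYC_Off libraries, had 8.89 to 14.5 in MYC_On and 5.41, 22.9 and 6.46 in MYC_Off, so relative to Adgre1 it was below MYC_On in replicates 1 and 3 (exact permutation p = 1). Per 100 reads of the pan-macrophage genes, Cd163 had 0.0797 to 0.171 in MYC_On and 0.0540, 0.277 and 0.0833 in MYC_Off. There replicate 3 lay inside the MYC_On range. The measure relative to Adgre1 was chosen after the values were seen.

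**Figure D3:**
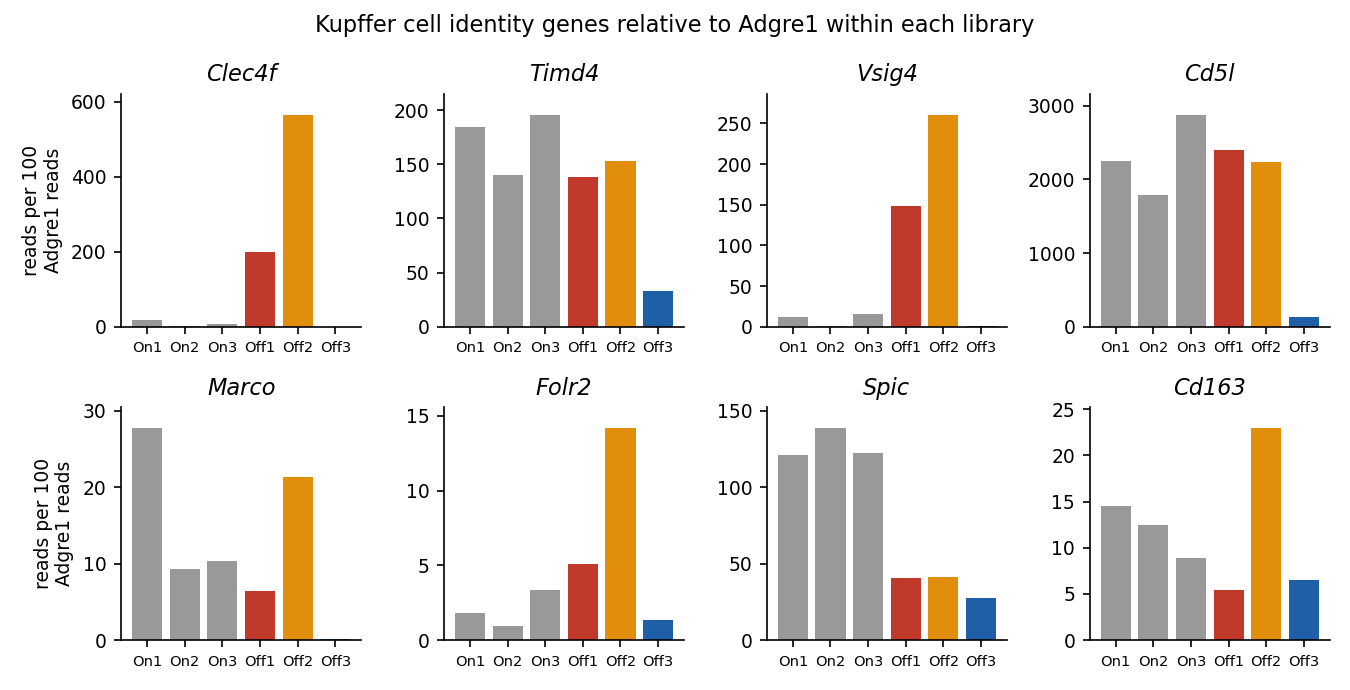
Reads of each gene per 100 Adgre1 reads in each of the 6 libraries, on linear axes from 0 with a scale of their own per gene. Clec4f and Vsig4 are high only in MYC_Off replicates 1 and 2, Cd5l and Timd4 are low only in MYC_Off replicate 3, and Spic is lower in all 3 MYC_Off libraries.

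Other genes used as Kupffer cell markers showed part of the division. Of 11 such genes 8 rose, with a median log2 fold change of 1.55. Their medians in MYC_Off replicates 1 to 3 were 2.33, 1.49 and 0.24 relative to the MYC_On mean, against 3.10, 2.71 and -0.63 for the 8 identity genes. All 11 were above every MYC_On library in replicates 1 and 2, and 6 were in replicate 3. Clec1b, a platelet-type lectin receptor of Kupffer cells, stood at 63.6, 26.8 and 4.45 CPM in MYC_Off against 2.98 to 5.46 in MYC_On. Fcna, a ficolin, was the 1 gene of the list below every MYC_On library in replicate 3, at 19.9 CPM against 33.0 to 54.6. Leaving out MYC_On replicate 1, 2 or 3 left 1, 0 or 1 genes of the list past the edgeR threshold, and leaving out MYC_Off replicate 1 left 3. Scaling by library size only left 3, and leaving the 20 most read genes out of the library size left 4.

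**Figure D4:**
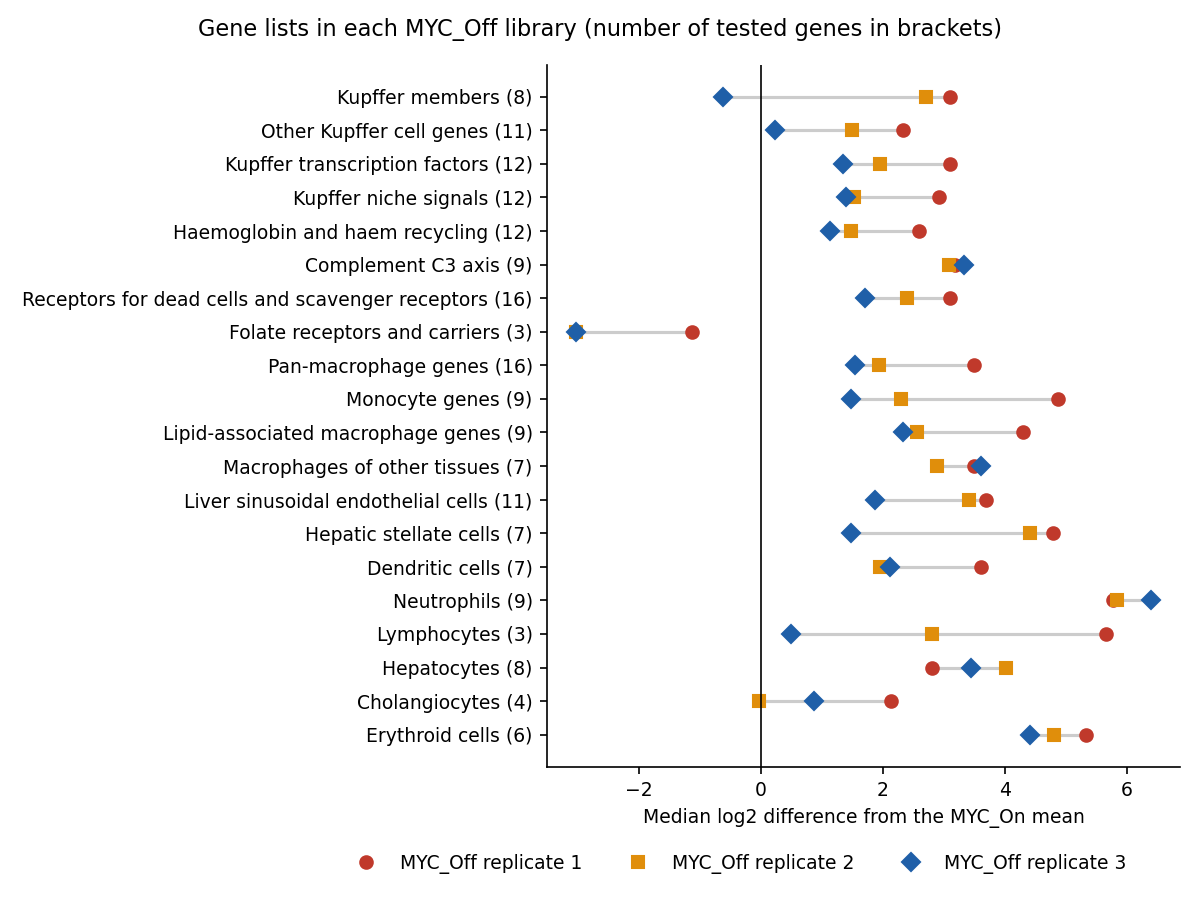
Median log2 difference from the MYC_On mean over the tested genes of each list, for each MYC_Off library; the first line holds the 8 Kupffer cell identity genes. In MYC_Off replicate 3 their median is -0.63, below 0 as is also that of the folate list, while the pan-macrophage median is 1.54.

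Most transcription factors linked to Kupffer cell identity were higher in MYC_Off. Of 12 factors 10 rose and 1, Smad4, fell. In MYC_Off replicate 3, 10 of the 12 factors stood above every MYC_On library, as did 2 of the 8 identity genes (Folr2 and Cd163) and 47.2% of tested genes. Nr1h3 (LXR-alpha) was at 154, 156 and 102 CPM in MYC_Off against 29.9 to 45.9 in MYC_On, and Id3 at 64.7, 33.5 and 10.04 CPM against 1.27 to 3.25. Maf, a factor of mature macrophages, stood at 47.5 CPM in replicate 3, against at most 15.7 CPM in MYC_On. Rbpj, through which Notch signals act, did not pass (0.16, edgeR adjusted p = 0.65). Without MYC_On replicate 1 or 3, and with the replicate number as a block, 6 factors rose.

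Signals of the Kupffer cell niche were uneven. Of 12 tested genes 8 rose and 1, Notch1, fell. Csf1, the growth factor of macrophages, stood at 49.96, 38.3 and 49.6 CPM in MYC_Off against 1.80 to 2.26 in MYC_On, so it was as high in replicate 3 as in replicate 1. Its receptor Csf1r was at 286, 155 and 62.7 CPM against 20.9 to 30.9. Gdf2 (BMP9) and Bmp10, ligands of the endothelial and macrophage receptor ALK1, each had 0 reads in MYC_Off replicate 3, while Gdf2 stood at 28.0 and 35.7 CPM in replicates 1 and 2 and at most at 0.246 CPM in MYC_On. Neither was tested, because too few libraries passed the filter. Without MYC_On replicate 1 or 3 and with library size only, 5 niche genes rose.

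Ligands and relatives of these receptors were mostly raised in all 3 MYC_Off libraries. Hp, haptoglobin, the ligand partner of Cd163, was at 3093, 7136 and 13547 CPM in MYC_Off and at 3.72 to 18.8 CPM in MYC_On, highest in replicate 3, where Cd163 was lowest of the MYC_Off libraries. Of 12 genes of haemoglobin and haem recycling 10 rose, and 5 did with scaling by library size only or without MYC_On replicate 2 or 3. C3, whose fragments Vsig4 binds, stood at 10095, 28777 and 26644 CPM against 883 to 1326 CPM, and 8 of 9 tested genes of the C3 axis rose. Among relatives of Timd4, Havcr2 (TIM-3) rose from at most 0.443 CPM to 9.38, 1.99 and 6.06 CPM, and Havcr1 rose from at most 0.886 to 1.43, 5.35 and 2.68 CPM. Timd2, far more read, did not pass (log2 fold change -0.67, edgeR adjusted p = 0.171), at 412 to 548 CPM in MYC_On and 184, 341 and 423 CPM in MYC_Off. Of 16 receptors for dead cells and scavenger receptors 12 rose. In the folate list 2 of 3 tested genes fell, Folr1 (-2.50) and the folate carrier Slc19a1 (-3.44), opposite in sign to Folr2.

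Markers of several other cell types were also lower in MYC_Off replicate 3 than in replicates 1 and 2, and their part in the result was not tested. Of hepatic stellate cell genes 6 of 7 tested rose (10 without MYC_Off replicate 3), and their summed level was 57.2 to 91.9 CPM in MYC_On and 1918, 1157 and 220 CPM in MYC_Off replicates 1 to 3, with Colec10 and Hand2 at 0 reads in replicate 3. Sinusoidal endothelial genes summed to 69.7 to 76.0 CPM in MYC_On and 824, 586 and 453 CPM in MYC_Off (10 of 11 rose). That sum mixed unlike patterns. Pecam1 (220, 50.3 and 117 CPM in MYC_Off), Cdh5 (182, 80.9 and 143) and Gpr182 (68.8, 72.0 and 85.4) were higher in replicate 3 than in replicate 2. The rest of the list was lowest of MYC_Off in replicate 3, such as Fcgr2b (47.8, 56.3 and 19.4 CPM) and Dnase1l3 (47.4, 73.6 and 6.06). All 11 tested genes of this list stood above every MYC_On library in replicate 3. Clec4g, a lectin restricted to these cells and not tested, did not, with 18.5, 47.7 and 0.0767 CPM in MYC_Off. Lymphocyte genes summed to 1.82 to 2.21 CPM in MYC_On and 102, 12.2 and 1.84 CPM in MYC_Off, with Ms4a1 and Cd79a at 0 reads in replicate 3 (2 of 3 tested rose, 0 in edgeR without MYC_On replicate 1 or 2, and 5 without MYC_Off replicate 3). Not all did: monocyte genes (7 of 9 rose, 4 without any 1 MYC_On library) summed to 26.6 to 45.0 CPM in MYC_On and 290, 64.7 and 83.9 CPM in MYC_Off. Dendritic cell genes (7 of 7 tested rose, 3 without MYC_On replicate 1 or 2) summed to 4.58 to 7.97 CPM and 113, 28.9 and 33.8 CPM.

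Lipid-associated macrophage, neutrophil and hepatocyte genes summed to more in MYC_Off replicate 3 than in replicate 2. Lipid-associated macrophage genes, such as Trem2 and Gpnmb, rose in 8 of 9 cases and summed to 256 to 383 CPM in MYC_On and 3429, 1236 and 3272 CPM in MYC_Off. In replicate 3 that sum was made up mostly of Lpl, which stood at 1080, 679 and 2273 CPM in MYC_Off. The list mixed unlike patterns, since Lpl was highest in replicate 3 and Trem2 and Gpnmb were highest in replicate 1. Trem2 stood at 107 CPM in MYC_Off replicate 1 and 35.1 CPM in replicate 3, and Gpnmb at 515 and 178 CPM. Genes of macrophages of other tissues (7 of 7 tested rose, 4 without MYC_On replicate 1) summed to 14.7 to 16.3 CPM and 169, 321 and 212 CPM, with Alox15 at 0 reads in replicate 3. Neutrophil genes (9 of 9 tested rose) summed to 2.45 to 3.69 CPM and 191, 168 and 275 CPM. Hepatocyte genes (6 of 8 rose) summed to 3171 to 6621 CPM and 78137, 142778 and 238938 CPM, a sum made up mostly of Alb (203249 CPM in replicate 3). The median log2 difference of the hepatocyte list was 4.01 in replicate 2 and 3.44 in replicate 3, and Hnf4a, Asgr1, Cps1, Ass1 and Cyp2e1 were lower in replicate 3 than in replicate 2. Erythroid genes (6 of 6 tested rose) summed to 31.5 to 91.7 CPM and 2336, 1689 and 738 CPM, and of 4 cholangiocyte genes 1 rose and 1 fell.

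The genes most like Clec4f over the 6 libraries included enzymes and a transporter of hepatocytes. Likeness was the root mean square difference in log2 CPM after centring on the MYC_On mean, ranked over 13331 genes. The 5 nearest were Cyp2e1 (0.95), Slco1a1 (1.21), C6 (1.38), Cyp7b1 (1.47) and Cyp26a1 (1.48). Of these Cyp2e1 and Cyp7b1 are cytochrome P450 enzymes of hepatocytes, Slco1a1 is a hepatocyte anion transporter, Cyp26a1 breaks down retinoic acid, and C6 is the complement component on the list of other Kupffer cell genes. Cyp2e1 stood at 981, 5706 and 2.15 CPM in MYC_Off against 4.74 to 48.8 in MYC_On, so it too was lowest in replicate 3, whereas Alb was highest there. The 5 genes nearest to Cd5l were Btnl2 (0.48), Ksr2 (0.51), Mefv (0.54), Gpm6b (0.60) and Gbp2b (0.65). Among the 8 genes themselves the nearest pair was Timd4 with Cd5l (0.76), followed by Cd5l with Marco and Timd4 with Spic (both 0.83), and Clec4f was nearest to Vsig4 (1.21).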

How the data were processed

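The deposited table holds whole-number read counts per gene symbol for 6 libraries, not normalized. The submitters' processing notes name mm10 and the tools featureCounts, STAR, Trimmomatic, Picard and DESeq2. Their versions, the annotation and the strand setting were not found in the labels. Groups and replicate numbers came from sample titles, and columns were matched by the library string in the labels. Those strings share a run and lane for all 6 libraries, and the index name of MYC_Off replicate 3 has another prefix than those of the other libraries.

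MYC_Off was compared with MYC_On over all genes with edgeR 4.0.16 in R 4.3.3 (filterByExpr with minimum count 10 and minimum total 15, TMM, robust quasi-likelihood fit, Benjamini-Hochberg adjustment over 14130 genes, threshold 0.05). Standard errors came from the fold change and F statistic, and log2 CPM per library used a prior count of 2. The test was also run on simulated counts in which the spread between the libraries of a group was capped. That run does not cover genes that varied within MYC_Off as Clec4f did. Alternatives were DESeq2 1.42.0, limma-voom (limma 3.58.1), other scalings and filters, a replicate block, stricter thresholds and leaving out each library; raising MYC_Off replicate 3 to at least 3 reads in the counts of patterns was added after seeing the data. Limits from 0 reads (3 reads per library) cover counting error only. The confidence intervals of the log2 fold changes came from the quasi-likelihood fit and also reflect variation between the libraries of a group. Libraries of a group differed by more than counting noise (lowest chi-square divided by its degrees of freedom 32.1).

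The 8 genes and the 19 lists were chosen with earlier results of these data known. The text names the 8 genes, Myc, and in each list up to 4 called genes with the smallest adjusted p and the most read gene (all called where 5 or fewer were). Any gene of the other Kupffer cell and transcription factor lists, set partners of the 8 (Hp, C3, Havcr1, Havcr2, Folr1, Stab2, Clec4g, Alb), and the 5 genes nearest in pattern to Clec4f and to Cd5l could also be named. Outside this rule, Notch1, Gdf2, Bmp10, Colec10, Colec11, Hand2, Alox15, Ms4a1, Cd79a, Ncr1, Hnf4a, Cps1 and Ass1 were named after their values were seen. So were Pecam1, Dnase1l3, Siglech and Ccr7. Complement C5 was not matched to a row. Symbols matched GENCODE M21 for 91.7% of rows. Figures were drawn with matplotlib 3.10.9.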

Additional observations from a re-analysis of the deposited data

How the results depend on the processing

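The 4 identity genes called higher became 2 with no low-count filter, 2 with limma-voom, 0 at an adjusted p of 0.01 (5 at an unadjusted p under 0.05, edgeR), and 0 to 7 over the fits that left out 1 library; DESeq2 called 5. With the replicate number as a block 1 was called, Cd163. The numbers are not said to pair samples, same-numbered samples deviated with correlations of -0.26, -0.17 and 0.04, and not every sample correlated best with its own number. The median of the identity genes tested in a fit stayed positive, between 1.39 and 2.58 over the fits without 1 library. The 1.39 came from the fit without MYC_Off replicate 1, in which Folr2 was not tested, nor was it without MYC_Off replicate 2. Of single genes only Spic changed sign, to -0.16 without MYC_Off replicate 1 (1.03 without MYC_Off replicate 3). For all genes, scaling by library size only gave 2526 higher and 5309 lower against 4222 and 3221, and moved the median of all genes by -0.74 (-0.40 without the 20 most read genes); the identity genes' median stood 2.01 above it with TMM and 2.12 with library size only. An adjusted p of 0.01 gave 2368 higher and 1889 lower, a test against 2-fold 2621 and 1428, and leaving out 1 library 2776 to 4317 higher. Of the fixed lists' genes 136 were higher and 5 lower; an adjusted p of 0.01 gave 89 and 2, the test against 2-fold 1 lower, and leaving out 1 library 2 to 5 lower. Where the cause is not plain from fewer samples or a stricter threshold, the cause was not tested. Genes with few reads, Folr2, Marco and Cd163 here, are limited by depth. So are Clec4f and Vsig4 in MYC_On and in MYC_Off replicate 3.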

Other observations

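The arrangement of MYC_Off replicates 1 and 2 above and replicate 3 below every MYC_On library held for 5 of the 8 identity genes and for 212 of 14130 tested genes (1.50%) under TMM, and for 4 of 8 under each of 3 other scalings. It was described after the values were seen and has no test. Among the fixed lists it was shown by 1 of 11 other Kupffer cell genes (Fcna), 1 of 7 tested stellate cell genes, 1 of 3 tested lymphocyte genes, 1 of 8 hepatocyte genes, and 0 of 16 pan-macrophage genes. The hepatocyte gene was Cyp2e1, the stellate gene Colec11 (62.4, 60.0 and 0.0767 CPM in MYC_Off) and the lymphocyte gene Ncr1 (16.8, 2.06 and 0.230 CPM). These counts cover tested genes, and a gene with few reads in replicate 3 and in MYC_On can miss the filter: the untested list genes Gdf2, Clec4g, Hand2, Ms4a1 and Cd79a had the same arrangement, with 0 or 1 reads in replicate 3.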
